A study of Mus musculus with 8 samples.

Results

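The genes of cholesterol and fatty acid synthesis were followed in skin that lacks p63 and in skin that has it, from mouse embryos. They are 33 named genes, of 13675 genes that the platform annotation names with 1 symbol per probe set over both array types. A probe set is the group of short probes that reads 1 transcript. The members fall into 17 sterol synthesis enzymes, 11 enzymes of fatty acid synthesis and modification, and 5 regulators and carriers. All 33 had at least 1 probe set, 26 genes on the array called the A chip and 17 on that called the B chip, and 32 had a probe set bright enough to be tested on at least 1 chip. The exception was Srebf2.

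The skin was taken at E18.5, shortly before birth, from embryos of matings between p63 heterozygous mice. The groups are p63 null and wild type, with 2 embryos each, and each chip has 2 arrays per genotype. Both groups come from the same kind of mating, and no treatment is named. No label names the allele or strain. The RNA is bulk RNA of whole skin, so epidermis, dermis, fat, muscle and vessels are read together, and fewer cells of a type and less RNA per cell cannot be told apart. The tissue label was checked against keratin markers. In wild-type arrays Krt10 read 7121 and 6824 and Krt1 read 7500 and 6597. In null arrays they read 1919 and 2347, and 708 and 868. The Krt5 and Krt14 probe sets of the A chip read at most 15.9 in every array of either genotype. A Krt15 probe set read at most 1.9 on the A chip, while another read 10544 and 12121 in wild type on the B chip. A floor reading on the A chip thus need not mean that a keratin is absent.

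Cholesterol is built from acetyl-CoA through mevalonate, isoprenoids and squalene, and then through a series of ring-modified sterols. Fatty acids are built from the same acetyl-CoA by acetyl-CoA carboxylase and fatty acid synthase, and are then elongated and desaturated. Both branches are controlled by the SREBP transcription factors, of which the product of Srebf2 acts mainly on sterol genes and that of Srebf1 mainly on fatty acid genes. They are released from the endoplasmic reticulum with the help of Scap and held there by the Insig proteins when sterols are plentiful. In skin, keratinocytes make cholesterol and fatty acids for the lipid layers of the barrier, and adipocytes and sebaceous glands make fatty acids for storage and secretion. p63, encoded by Trp63, is a transcription factor that stratified epithelia need in order to form.

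The sterol genes that passed the test were lower in null skin, and those of fatty acid synthesis were higher with 1 exception. Of the 17 sterol synthesis genes, 9 were lower in null skin on at least 1 chip and 0 were higher. Of the 11 fatty acid synthesis genes, 8 were higher on at least 1 chip and 1, Elovl1, was lower. A gene could pass on either chip in these counts. The matching share of all genes was not computed, so the shares below are given per chip. Srebf1 rose and the sterol carrier gene Stard4 fell. Each gene was read by its brightest tested probe set on a chip. It was called changed when limma's p, adjusted by the Benjamini-Hochberg method over all tested probe sets of that chip, was under 0.05. A fold change below is the null mean less the wild-type mean of log2 signal plus a small offset, which understates changes of dim genes.

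**Figure D1:**
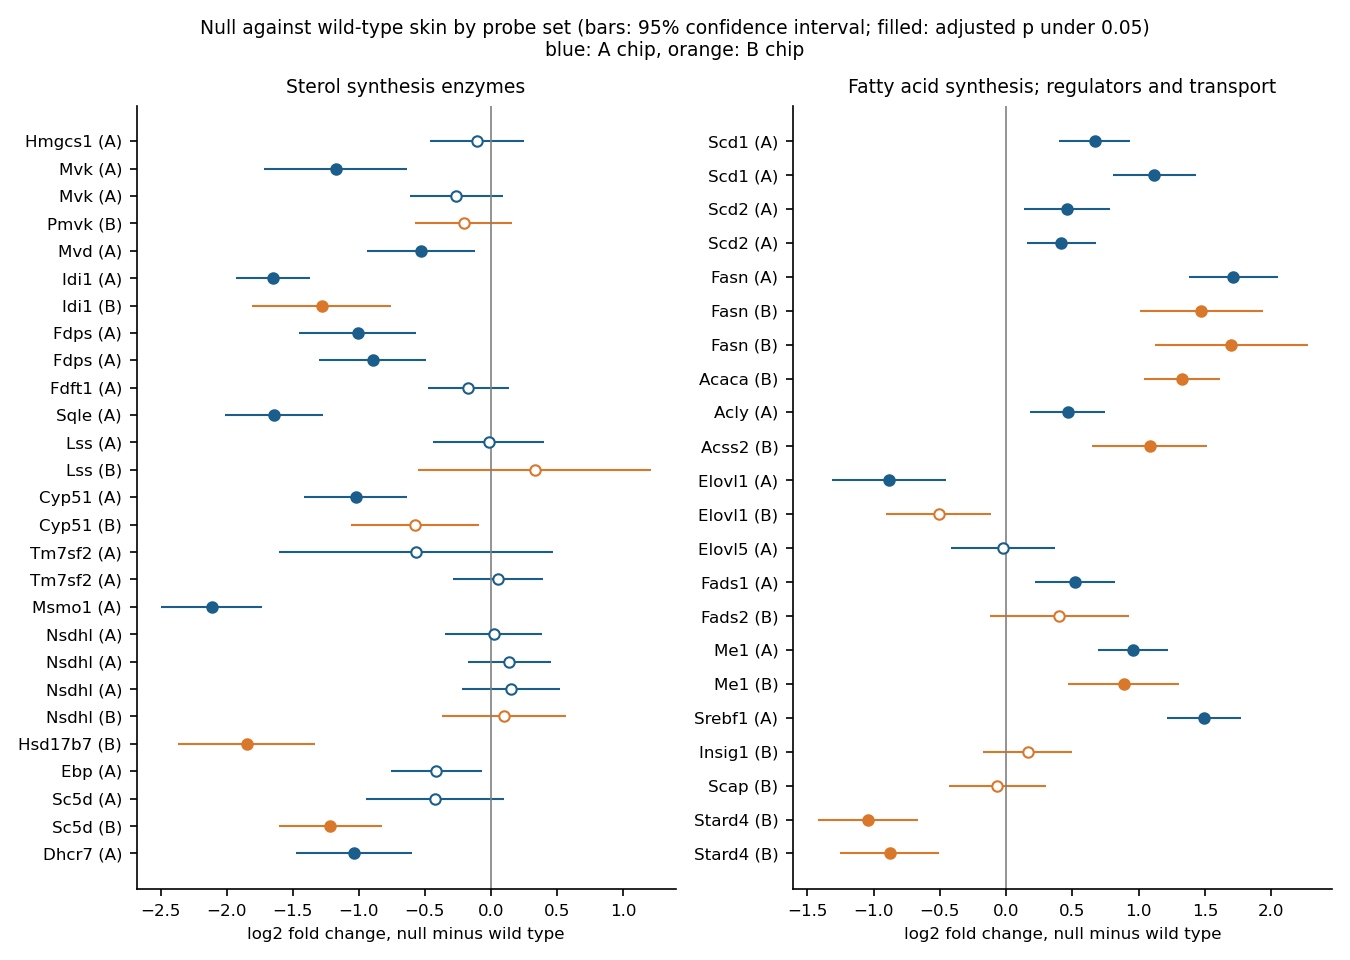
Log2 fold change, null minus wild type, of every tested probe set of the members, with its 95% confidence interval, A chip in blue and B chip in orange. Filled points had an adjusted p under 0.05. Filled sterol points all lie left of 0, down to -2.12 for Msmo1, and filled fatty acid points lie right of 0, up to 1.71 for Fasn, except Elovl1.

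The counts per chip are read against all genes of that chip, where changes were common. On the A chip 44.3% of tested probe sets were called, and of all genes tested 22.8% were lower and 22.5% higher in the null. On the B chip 29.4% of probe sets were called, with 16.0% of genes lower and 16.1% higher. Of the 15 sterol genes tested on the A chip 7 were lower, or 46.7%. Of the 7 tested on the B chip 3 were lower, or 42.9%. None was higher on either chip by limma, and 0 had an unadjusted p under 0.05 in that direction. The median log2 fold change of the sterol genes was -0.43 for the A chip, beside 0.01 for all genes tested, and -0.58 for the B chip, beside 0.04. Of the 8 fatty acid genes tested on the A chip 6 were higher, or 75%, and 1 was lower. Of the 6 tested on the B chip 4 were higher, or 66.7%. Their medians were 0.49 and 0.98. Both null arrays were below both wild-type arrays for 11 of the 15 sterol genes of the A chip, against 37.3% of all genes, and for 5 of the 7 of the B chip, against 32.6%. Both null arrays were above for 6 of the 8 fatty acid genes of the A chip, against 37.8% of all genes, and for 5 of the 6 of the B chip, against 37.0%. The A chip count of 6 higher fatty acid genes became 3 when either wild-type array, replicate 1 or replicate 2, was left out. Counts over all tested probe sets also dropped without single wild-type arrays, from 3300 to 2199 for the A chip without replicate 2, and from 2189 to 1139 and 1103 for the B chip without replicates 1 and 2. The series names 2 embryos per genotype in all, so the chips are not independent of each other.

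Whole-array measures differed between genotypes as well. Trp63 read 61.9 and 46.6 in null and 379 and 347 in wild type (A chip) and had a fold change of -2.49. The beta-actin ratio of 3' to 5' signal, a measure of RNA integrity, was 1.27 in both null arrays of the A chip, where wild type had 1.63 and 1.69. The null arrays of the B chip had 1.36 and 1.33, below both wild-type arrays. The Gapdh ratio was 2.46 and 2.66 in wild-type replicate 2 of the A and B chips and 1.25 to 1.55 in the other arrays, and that replicate is the one without which the fewest probe sets were called. The part of these ratios in the results was not tested. The CreX hybridisation spike was brighter in null replicate 2 than in the other arrays, 6420 against 3334 to 3837 for the A chip. Without that array 6 sterol genes were lower and 6 fatty acid genes higher there, and for the B chip 3 and 4.

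The promoters of 5 members are printed here, of which only that of Fasn belongs to the fatty acid branch. The RefSeq promoter table of build GRCm38.p6 gave 250 bases before to 50 bases after the start site for 26 of the 33 members. Printed are Idi1, Msmo1 and Hsd17b7, the genes with the lowest fold changes among the sterol members listed there. Then come Hmgcs1, the earliest sterol enzyme among the members, which was not called, and Fasn, the fatty acid member with the highest fold change. In this order the 5 lie at chr13:8885356-8885655 (plus strand), chr8:64733529-64733828 (minus strand), chr1:169969156-169969455 (minus strand), chr13:119690101-119690400 (plus strand) and chr11:120824498-120824797 (minus strand). Each reads 5′ to 3′ along its gene. Capitals mark CCAAT or its reverse complement ATTGG, the box bound by NF-Y, and in Hmgcs1 also TCACCCCAC, a match to a sterol response element core.
Idi1: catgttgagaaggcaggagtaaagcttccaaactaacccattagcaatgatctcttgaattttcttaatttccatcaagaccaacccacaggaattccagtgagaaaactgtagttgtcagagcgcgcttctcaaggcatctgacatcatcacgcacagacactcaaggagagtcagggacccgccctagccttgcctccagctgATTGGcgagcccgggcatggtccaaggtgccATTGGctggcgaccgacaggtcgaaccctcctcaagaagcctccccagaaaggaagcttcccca
Msmo1: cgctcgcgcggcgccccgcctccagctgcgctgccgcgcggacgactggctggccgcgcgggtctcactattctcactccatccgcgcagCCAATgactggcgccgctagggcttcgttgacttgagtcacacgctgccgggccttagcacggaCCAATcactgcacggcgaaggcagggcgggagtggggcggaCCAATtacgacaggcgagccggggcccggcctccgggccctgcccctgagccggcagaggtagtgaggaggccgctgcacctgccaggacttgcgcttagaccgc
Hsd17b7: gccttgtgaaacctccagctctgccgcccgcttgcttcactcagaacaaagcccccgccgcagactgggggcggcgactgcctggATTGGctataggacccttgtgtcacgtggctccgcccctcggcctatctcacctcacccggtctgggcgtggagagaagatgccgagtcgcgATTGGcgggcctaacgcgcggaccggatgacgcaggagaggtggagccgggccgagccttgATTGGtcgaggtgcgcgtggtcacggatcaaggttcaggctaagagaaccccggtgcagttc
Hmgcs1: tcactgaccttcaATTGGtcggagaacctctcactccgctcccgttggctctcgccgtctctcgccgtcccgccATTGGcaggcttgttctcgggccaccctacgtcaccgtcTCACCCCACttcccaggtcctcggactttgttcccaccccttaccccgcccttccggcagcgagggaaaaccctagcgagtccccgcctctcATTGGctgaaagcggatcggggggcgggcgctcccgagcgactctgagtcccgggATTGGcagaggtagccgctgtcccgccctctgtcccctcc
Fasn: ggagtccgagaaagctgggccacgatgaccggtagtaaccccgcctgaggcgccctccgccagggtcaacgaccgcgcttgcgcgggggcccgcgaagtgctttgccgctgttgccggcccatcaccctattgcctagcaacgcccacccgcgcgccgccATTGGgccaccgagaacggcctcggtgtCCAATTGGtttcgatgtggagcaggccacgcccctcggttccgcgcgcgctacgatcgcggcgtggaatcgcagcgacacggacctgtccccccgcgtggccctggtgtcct

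The CCAAT box was searched on both strands. It was in a promoter of 14 of the 14 sterol synthesis genes in the table and of 6 of the 8 fatty acid genes. Acaca, which rose, and Fads2, which did not pass, lacked it. The box was in 37.4% of all promoters of that length and in a promoter of 42.3% of protein-coding genes. The Sp1 box GGGCGG was in 13 of 14 sterol and 5 of 8 fatty acid genes, against 49.2% of protein-coding genes. The core TCACNCCAC was found in Hmgcs1 alone among the 26 members in the table, against 1.41% of protein-coding genes. The shorter core CACCCCAC overlaps it there. Only these letters within 300 bases were searched, so a site with other letters or further away would be missed. In Idi1 the CCAAT boxes began 45 and 14 bases before the start site, and in Msmo1 160, 96 and 55 bases before it. In Fasn a CCAAT overlaps an ATTGG. Genes that fell and genes that did not pass the test both held the box, Idi1 and Hmgcs1 among them. A match of letters is a description of the sequence and not of binding.

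The enzymes from acetyl-CoA to squalene were mixed. Hmgcs1, which makes HMG-CoA, read 950 and 1005 in null arrays and 887 and 1246 in wild type (A chip), and the groups overlapped. Its log2 fold change was -0.10, with a 95% interval of -0.46 to 0.25. Mvk, mevalonate kinase, had 2 tested probe sets that differed in their call. The brighter one read 154 and 165 in null and 200 and 188 in wild type, with a fold change of -0.26 (adjusted p = 0.204). The other read 55.6 and 33.3 against 113 and 116, with a fold change of -1.18 (adjusted p = 0.00395). Both put the null arrays below the wild-type arrays, and only the dimmer one passed. Pmvk, phosphomevalonate kinase, read 602 and 703 against 731 and 791 on the B chip and did not pass (-0.21, interval -0.57 to 0.16). Mvd, which makes isopentenyl pyrophosphate, read 101 in both null arrays and 167 and 138 in wild type. It fell by 0.53 on the log2 scale (adjusted p = 0.0403), a call lost without any 1 of the 4 arrays, with adjusted p from 0.0615 to 0.232, and with no filter (0.0831).

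Idi1 and Fdps fell in the isoprenoid steps. Idi1, isopentenyl pyrophosphate isomerase, read 331 and 354 in null arrays and 1037 and 1175 in wild-type arrays of the A chip. A B chip probe set read 140 and 155 in null and 500 and 381 in wild type. Every null array was below every wild-type array on both chips, and the mean signals were 3.23 and 2.99 times higher in wild type. The log2 fold changes were -1.65 (SE 0.13, adjusted p = 1.34e-05) and -1.28 (SE 0.22, adjusted p = 0.00583). With wild-type replicate 1 left out, the B chip value was -1.11 and no longer passed (adjusted p = 0.0562). Fdps, farnesyl pyrophosphate synthase, read 821 and 534 in null and 1211 and 1279 in wild type, so the null arrays were lower and also further apart. It fell by 0.90 (SE 0.18, adjusted p = 0.00365), and a second tested probe set by 1.01. The remaining 2 Fdps probe sets read at most 59 in any array and were not tested. Fdft1, squalene synthase, which commits farnesyl groups to sterols, did not pass (-0.17, interval -0.48 to 0.13), with 466 and 454 in null against 472 and 573 in wild type.

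Past squalene, Sqle fell on the A chip, Cyp51 fell on the A chip alone of its 2 readings, and Lss did not pass. Sqle, squalene epoxidase, read 451 and 314 in null arrays and 1222 and 1186 in wild-type arrays. The groups stood well apart, with a mean 3.15 times higher in wild type and a fold change of -1.64 on the log2 scale (SE 0.16, adjusted p = 6.87e-05). Lss, which closes the rings to lanosterol, overlapped between genotypes on both chips. Its fold changes were -0.02 (A chip) and 0.33 (B chip), the latter with an interval from -0.55 to 1.21. Cyp51, lanosterol demethylase, read 90.0 and 107 in null and 203 and 223 in wild type on the A chip, where it fell by 1.02 (SE 0.17, adjusted p = 0.00145). Its B chip probe set read 340 and 329 against 441 and 625, the same order of genotypes, but did not pass (-0.58, adjusted p = 0.0736).

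The enzymes that remove the methyl groups at carbon 4 differed among themselves. Msmo1, the sterol methyl oxidase, read 109 and 88.6 in null arrays and 427 and 517 in wild-type arrays. With a mean 4.78 times higher in wild type, its fold change of -2.12 (SE 0.17, adjusted p = 1.82e-05) was the lowest of all members on either chip. Hsd17b7, the 3-keto sterol reductase, read 195 and 305 in null and 1144 and 922 in wild type on the B chip. It fell by 1.85 (SE 0.22, adjusted p = 0.00119), and every null array was below every wild-type array. Its A chip probe set was too dim to be tested, at 20.6 and 10.4 in null and 47.3 and 56.6 in wild type. Nsdhl, the sterol dehydrogenase that acts between these enzymes, had 4 tested probe sets over both chips and none passed. Their fold changes lay from 0.02 to 0.15. Tm7sf2, a sterol reductase that does not act on these methyl groups, had a brighter probe set with a fold change of 0.05 (interval -0.29 to 0.40). Its dimmer probe set read 60.1 and 247 in null, on either side of the wild-type values of 170 and 215, with a fold change of -0.57 (adjusted p = 0.344). Without null replicate 2 that value was -1.48 (adjusted p = 0.000327) and without null replicate 1 it was 0.35, so a single null array set its direction.

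Sc5d and Dhcr7 fell in the last steps to cholesterol. Sc5d, sterol C5 desaturase, read 271 and 292 in null arrays and 708 and 744 in wild-type arrays of the B chip. It fell by 1.22 (SE 0.17, adjusted p = 0.00213), with a mean 2.58 times higher in wild type. Its tested A chip probe set, close to the level needed for testing, did not pass (-0.43, adjusted p = 0.165), and both null arrays were again below both wild-type arrays. Dhcr7, which makes cholesterol from its direct precursor, read 71.6 and 91.0 in null and 164 and 197 in wild type. Its fall was 1.04 (SE 0.19, adjusted p = 0.00244). Ebp, the sterol isomerase, read 172 and 163 against 219 and 237 without overlap, and its fold change of -0.42 narrowly missed the threshold (adjusted p = 0.0515). It passed when the filter was moved to the 60th percentile (adjusted p = 0.0463) and with no variance trend (0.0487).

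**Figure D2:**
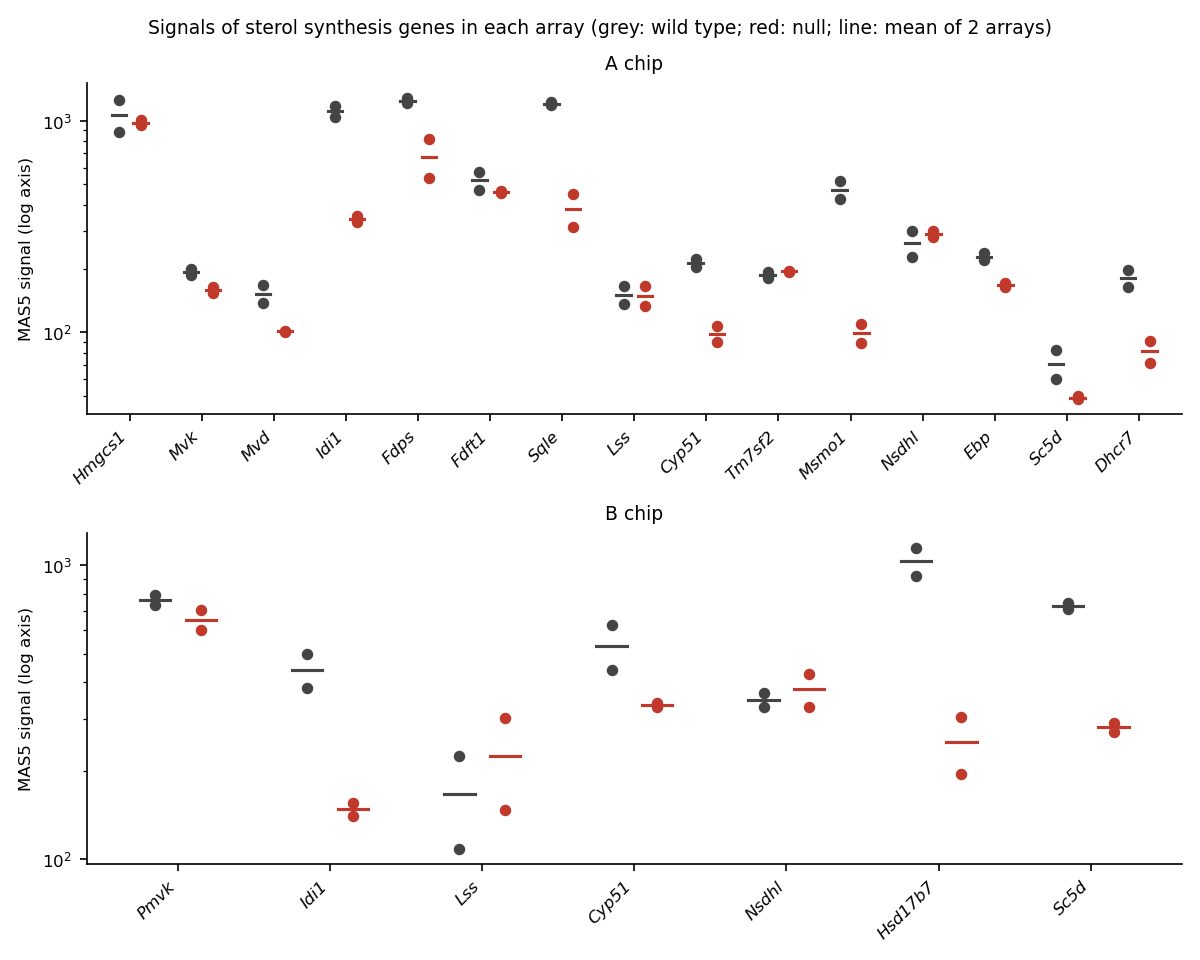
Deposited signal of each sterol synthesis gene's brightest tested probe set in every array, on a log axis, A chip above and B chip below, in pathway order. Grey points are wild type, red points null, and lines the mean of 2 arrays. Idi1, Sqle and Msmo1 on the A chip and Hsd17b7 and Sc5d on the B chip show null points well below wild-type points, while Lss and Nsdhl overlap.

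Of the regulators, Srebf1 read 2492 and 2942 in null arrays and 986 and 924 in wild-type arrays of the A chip. The null arrays were above the wild-type arrays by a mean ratio of 2.84, and the log2 fold change was 1.49 (SE 0.12, adjusted p = 2.18e-05). The probe set does not separate the transcripts of Srebf1 from each other in the annotation used here. Srebf2 could not be compared, since its B chip probe set read from 3.70 to 21.1 in all arrays. Scap, which escorts the SREBP proteins, overlapped between genotypes (-0.07, interval -0.43 to 0.30). Insig1, which retains Scap, read 778 and 837 in null and 727 and 706 in wild type on the B chip and did not pass (0.16, interval -0.18 to 0.50). Stard4, a carrier of cholesterol between membranes, read 1425 and 1901 in null arrays and 2968 and 3184 in wild-type arrays. It fell by 0.88 (SE 0.16, adjusted p = 0.00674), and its second tested probe set fell by 1.04. Its direction was that of the called sterol enzymes and opposite to that of Srebf1.

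Among the fatty acid genes Fasn and Acaca had the highest fold changes. Fasn, fatty acid synthase, read 2125 and 2651 in null arrays and 641 and 797 in wild-type arrays of the A chip. Its brighter B chip probe set read 676 and 829 in null and 207 and 266 in wild type. All null arrays were above all wild-type arrays, and the mean ratios were 3.32 and 3.18. The log2 fold changes were 1.71 (SE 0.15, adjusted p = 3.07e-05) and 1.47 (SE 0.20, adjusted p = 0.00194), and its other B chip probe set gave 1.70. Acaca, acetyl-CoA carboxylase, which makes malonyl-CoA in the committed step, read 3234 and 3468 in null and 1253 and 1351 in wild type on the B chip. Its rise was 1.33 (SE 0.12, adjusted p = 0.000363), a mean ratio of 2.57.

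Genes that supply acetyl-CoA and NADPH rose too. Acss2, acetyl-CoA synthetase of the cytosol, read 1721 and 1345 in null arrays and 791 and 601 in wild-type arrays of the B chip. The groups did not overlap, and it rose by 1.08 (SE 0.19, adjusted p = 0.00553). Me1, malic enzyme, read 906 and 979 in null and 471 and 488 in wild type on the A chip, with no overlap. It rose by 0.96 (adjusted p = 0.000243) there and by 0.89 (adjusted p = 0.0105) for the B chip, where leaving out wild-type replicate 1 (0.0620) or wild-type replicate 2 (0.0514) ended the call. Acly, ATP citrate lyase, read 2315 and 1919 against 1480 and 1567 and rose by 0.47 (adjusted p = 0.0151). That call was lost when wild-type replicate 1 (0.105) or wild-type replicate 2 (0.0639) was left out.

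Of the 4 desaturases 3 rose. Scd1, the delta-9 desaturase of fat and sebaceous glands, read 6701 and 7284 in null arrays and 4179 and 4618 in wild-type arrays. It rose by 0.67 (SE 0.12, adjusted p = 0.00195), and a second probe set rose by 1.12, while the remaining one was too dim to test. Without wild-type replicate 1 the brighter probe set no longer passed (0.60, adjusted p = 0.0672) and the second still did. Scd2, a related desaturase whose probes may also bind Scd1 transcripts, read 5371 and 5845 against 4288 and 4104 and rose by 0.42 (adjusted p = 0.0169). Its call was lost when wild-type replicate 1 (0.141) or wild-type replicate 2 (0.229) was left out, and with no filter (0.0515). Fads1, the delta-5 desaturase of polyunsaturated fatty acids, read 409 and 381 in null and 279 and 266 in wild type and rose by 0.52 (adjusted p = 0.0123, and 0.0678 without wild-type replicate 2). Fads2, the delta-6 desaturase, read 553 and 458 against 451 and 299 on the B chip and did not pass (0.40, interval -0.12 to 0.92).

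Elovl1, the elongase of very long saturated chains used in barrier ceramides, was the fatty acid member that fell. It read 105 and 78.3 in null arrays and 183 and 174 in wild type (A chip), and fell by 0.88 (SE 0.19, adjusted p = 0.00514). In the B chip it read 822 and 620 against 1021 and 1059, below wild type in both null arrays, but did not pass (-0.51, adjusted p = 0.0591). There it passed without null replicate 1 (-0.70, adjusted p = 0.00997), with the replicate number as a block (adjusted p = 0.0476) and when the filter was moved to the 60th percentile (0.0491). Elovl5, the elongase of polyunsaturated chains, read 970 and 650 in null around wild-type values of 817 and 799. Its fold change was -0.02 with an interval from -0.42 to 0.37, wide because the null arrays differed.

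**Figure D3:**
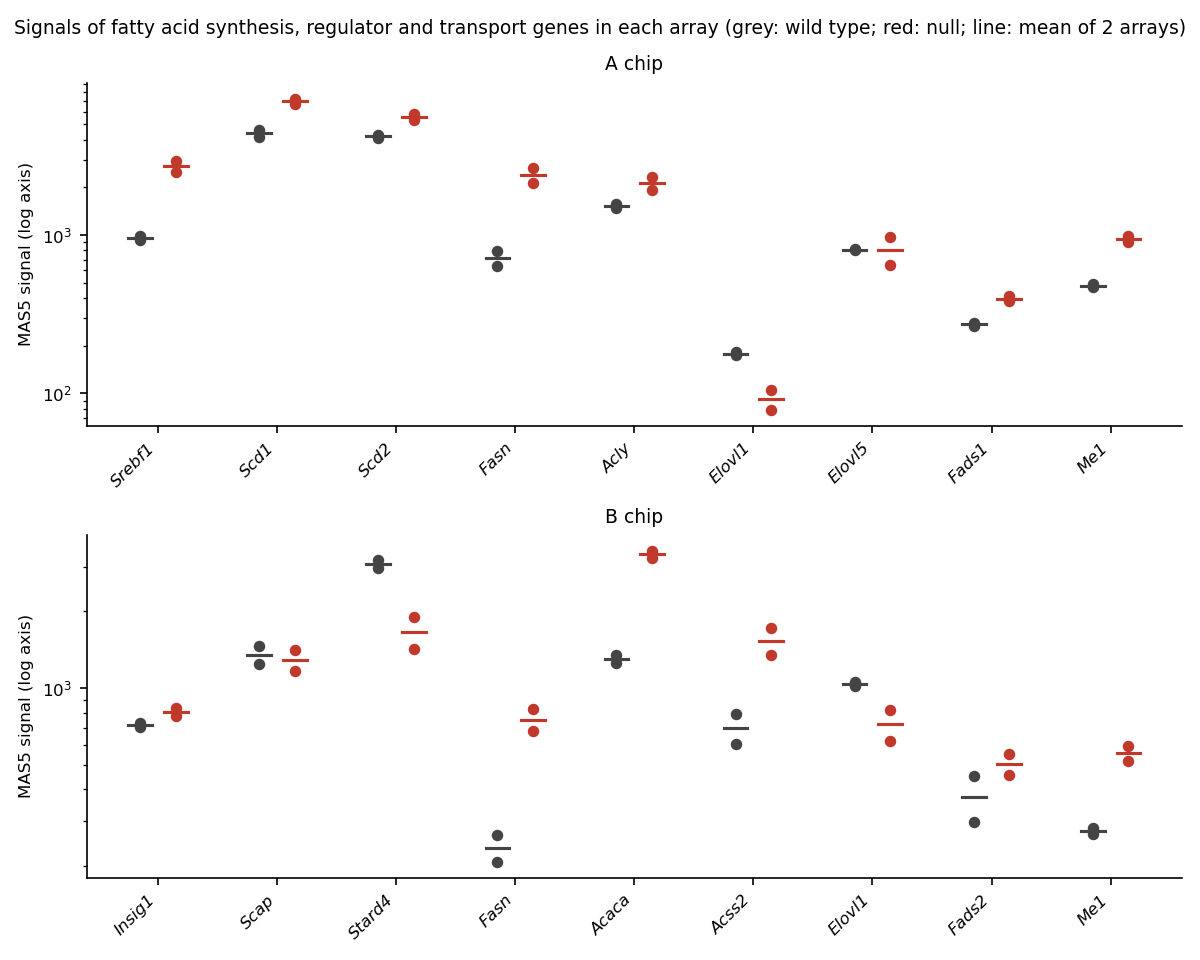
Deposited signal of each fatty acid synthesis, regulator and carrier gene's brightest tested probe set in every array, on a log axis, A chip above and B chip below. Grey points are wild type, red points null, and lines the mean of 2 arrays. Srebf1, Fasn and Acaca show null points above wild-type points, and Elovl1 and Stard4 show them below.

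Other genes of sterol and fatty acid handling were counted as well, and these lists are not limited to synthesis enzymes. Of 8 other sterol genes tested on the A chip 5 rose and 1, the isoprenoid enzyme gene Ggps1, fell, with a median of 0.65, where 22.5% of all genes were higher and 22.8% lower. Of 5 tested on the B chip 2 rose and 1 fell, with a median of 0.15, where 16.1% of all genes were higher and 16.0% lower, so the 1 lower gene is near the background. Insig2, the second Insig protein, read 1602 and 1515 in null arrays and 3908 and 4292 in wild-type arrays of the B chip. It fell by 1.36 (SE 0.12, adjusted p = 0.000298) and by 1.85 on a second probe set, whereas Insig1 on the same chip did not pass. Of 12 other fatty acid genes tested on the A chip 6 rose and 5 fell, and of 6 on the B chip 3 rose and 1 fell, the last again near the share of all genes.

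Genes of that list lay on both sides. Elovl6, the elongase that makes stearate from palmitate, read 118 and 182 in null and 410 and 419 in wild type, and fell by 1.42 (SE 0.19, adjusted p = 0.000412). Elovl7, an elongase of saturated chains named after its values were seen, read 333 and 337 in null and 4098 and 4733 in wild type on the B chip, and fell by 3.52 (SE 0.14, adjusted p = 5.81e-06). Thrsp, a nuclear factor of lipogenic tissues, read 2766 and 3100 in null arrays and 454 and 504 in wild-type arrays. It rose by 2.58 (SE 0.12, adjusted p = 6.01e-07). Acacb, the carboxylase that sits on mitochondria and regulates fatty acid oxidation, read 1948 and 2311 in null and 656 and 707 in wild type, a rise of 1.57 (adjusted p = 0.000363). Elovl3 read at most 13 in every array and was not tested.

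Markers of skin cell types moved beside both branches. Of 14 keratinocyte markers tested on the A chip 13 fell, with a median of -3.09 over the 14. Their summed signal was 4651 to 5347 in null arrays and 42063 to 43193 in wild-type arrays. Cdh1 was the marker that did not fall, with overlapping groups and a fold change of 0.01. Of 14 adipocyte markers 12 rose, with a median of 1.02 and sums of 29763 to 32629 in null and 13160 to 13320 in wild type. The largest rises were in the brown fat genes Ucp1, by 5.42, and Cidea, by 3.77. Ucp1 read 1859 and 2023 in null arrays and 33.8 and 31.7 in wild-type arrays. Fabp4 (0.18) and Cd36 (0.54) did not pass. Adipoq, the adipocyte hormone adiponectin, read 5497 and 6104 in null and 3682 and 3263 in wild type. All 3 sebaceous gland markers tested on the A chip, Mgst1, Plin2 and Mc5r, rose, by a median of 0.72. Elovl3, also on that list, was too dim to test. Of the 2 tested on the B chip Krt79 fell by 3.10 while Fads6 did not pass, with a value of 0.39, so this list did not move as a whole. Skeletal muscle, leukocyte and endothelial markers of the A chip rose in 13 of 13, 9 of 10 and 6 of 8 cases, and fibroblast and matrix markers in 5 of 11. Summed leukocyte signal was 9703 to 10709 in null and 3775 to 4000 in wild type. The part of these shifts in the sterol and fatty acid values was not tested.

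**Figure D4:**
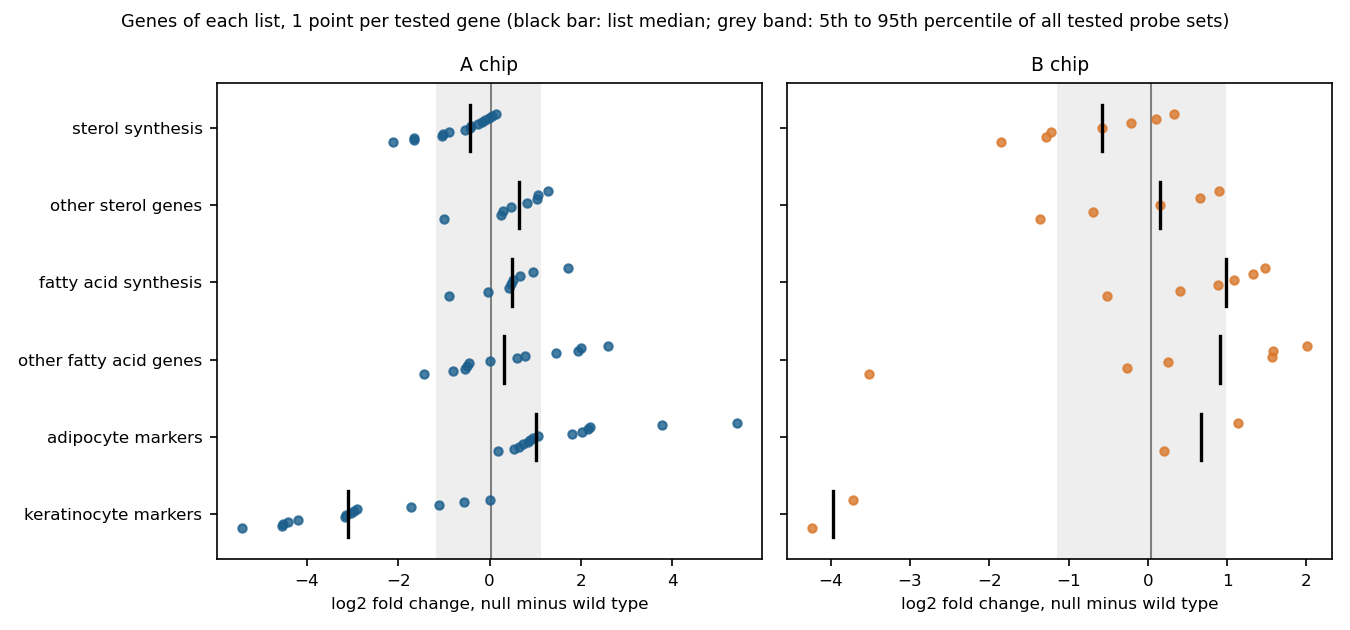
Log2 fold change, null minus wild type, of each tested gene in 6 lists, A chip in blue and B chip in orange, with the list median as a black bar and the 5th to 95th percentile of all tested probe sets as a grey band. Sterol synthesis genes lie mostly left of 0 with a median of -0.43 on the A chip, fatty acid synthesis genes mostly right with 0.49, adipocyte markers further right with 1.02 and keratinocyte markers furthest left with -3.09.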

How the data were processed

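RNA isolation used TriZol and an RNeasy column, and the label was biotin, per the labels' protocols. The authors deposited an intensity signal on a linear scale for each probe set, and the submitters' processing notes name MAS5. Its version is not known here. Arrays of one chip had nearly equal 2% trimmed means, 250.1 to 250.2 (A) and 500.1 (B).

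Each chip was analysed apart. Arrays were rescaled to 1 trimmed mean, the 20th percentile of the signals was added (13.0 and 54.5) and log2 taken. Control probe sets, 66 per chip, were dropped. Probe sets with a mean log2 above the 40th percentile were tested, 7453 and 7446, with limma 3.58.1 in R 4.3.3 (lmFit, eBayes with intensity trend, two-sided, Benjamini-Hochberg adjustment). Means and ratios are of deposited signals. Replicates are 2 embryos per genotype, which limits precision. The fit was tested on simulated data. Probe sets were named from the platform annotation, 10855 of 12488 and 10603 of 12477 having 1 symbol. The genes named are all members and a short list of related genes. Members and lists were chosen with earlier results of these data known. Alternatives were other scalings, offsets and filters, no variance trend, a replicate block, averaged probe sets and leaving out each array.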

Additional observations from a re-analysis of the deposited data

How the results depend on the processing

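Over the alternative scalings, offsets, filters, variance model, replicate block and left-out arrays, 161 of 168 counts of called members stayed within 1.5 times the reported count. Many of these counts were 0 or 1 in the main fit, so that share says little about the larger counts. The number of sterol genes lower in null ranged from 5 to 9 (A chip) and 2 to 3 (B chip). The called probe sets followed were 43, of members and of related genes, some of these named after their values were seen. Of the 43, 34 kept their call and direction in every alternative that gave a value, and none changed sign. Apart from the dimmer A chip probe set of Ggps1, those that lost the call belonged to members. They were Mvd, Acly, Fads1, the brighter Scd1, both of Scd2, and Idi1 and Me1 of the B chip. The filter at the 60th percentile left 0 lower fatty acid genes on the A chip, since Elovl1 was below it. For the B chip the 0 lower fatty acid genes became 1, Elovl1, under that filter, with the replicate block and with the mean over probe sets of a gene. Leaving out 1 array gave 0 to 1 on the B chip, 3 to 6 higher fatty acid genes on the A chip, and 2199 to 3297 and 1103 to 2477 called probe sets. The replicate block, tried although no source pairs the embryos, called 45.2% and 32.4% of tested probe sets, against 44.3% and 29.4%; the differences within genotypes correlated between equal numbers at 0.04 and -0.05 over probe sets.

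Some values that did not pass the test changed sign when 1 array was left out. Hmgcs1 ranged from -0.35 to 0.14, Elovl5 from -0.31 to 0.26, and 2 of the A chip Nsdhl probe sets from -0.12 to 0.16 and from -0.045 to 0.34. The dimmer Tm7sf2 probe set ranged from -1.48 to 0.35, passing at the lower end. Lss ranged from -0.16 to 0.12 (A chip) and -0.080 to 0.74 (B chip), Nsdhl of the B chip from -0.061 to 0.26, and Scap from -0.20 to 0.067. The cause was not tested. Dim probe sets, such as those of Srebf2, give no comparison at this signal level.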

Other observations

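Further lipid genes of storage and transport are named here after their values were seen. Slc25a1, the mitochondrial citrate carrier that feeds cytosolic acetyl-CoA, read 1636 and 2052 in null arrays and 497 and 398 in wild type (A chip), and rose by 2.01 (SE 0.15, adjusted p = 1.35e-05). Dgat1, which completes triglycerides, read 556 and 734 against 151 and 164 and rose by 1.94 (adjusted p = 2.42e-05). Agpat2, an acyltransferase of triglyceride and phospholipid synthesis, read 6572 and 7906 against 1616 and 1891 on the B chip and rose by 2.01 (adjusted p = 0.000103). Nr1h3, the oxysterol receptor LXR alpha, rose from 111 and 105 in wild type to 283 and 276 in null on the A chip, by 1.28 (adjusted p = 0.000226).

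Ggps1, which makes geranylgeranyl pyrophosphate from the product of Fdps, read 77.8 and 59.4 in null arrays and 156 and 140 in wild-type arrays, and fell by 0.99 (adjusted p = 0.00370). A second A chip probe set fell by 0.95, but did not pass with wild-type replicate 1 left out (adjusted p = 0.119) or with no filter (0.0543). On the B chip it read 394 and 255 against 514 and 586 and did not pass (-0.70, adjusted p = 0.0530), though it passed without null replicate 1 (-0.96, adjusted p = 0.00628) and under 4 other alternatives (0.0296 to 0.0484). The null arrays were below the wild-type arrays in each of these tested probe sets. A further B chip probe set, too dim to test, read 65.8 and 74.4 in null and 144 and 216 in wild type. Another, also too dim, read 50.6 and 121 in null around wild-type values of 82.1 and 77.8.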
